A study of Mus musculus with 21 samples.

Results

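Proteoglycans are proteins that carry long sulfated sugar chains, and the 10 genes described here encode the core proteins of such molecules. They are the syndecans Sdc1 and Sdc4, the glypicans Gpc1, Gpc3, Gpc4 and Gpc6, the small leucine-rich proteoglycans biglycan (Bgn) and decorin (Dcn), the transmembrane chondroitin sulfate proteoglycan Cspg4 (also called NG2), and versican (Vcan). They were selected on measured values, namely their FPKM levels and the calls between populations in these same tables, and were then taken by symbol from the 43943 loci of the table of 3 populations and from the tables of sorted culture fractions and of drug-treated cultures. Each of the 10 symbols was found at 1 locus in all 3 tables, and at the same locus in each.

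The series holds 21 libraries of polyadenylated RNA from mouse epidermal keratinocytes, in 7 groups of 3, and the labels give the genotype as wild type for the 9 libraries of the first 3 groups and give none for the other 12. The groups were hair follicle stem cells (HFSCs) purified by flow cytometry, total epidermal cells, cultured HFSCs, alpha-6 integrin+ cells sorted from 3C cultures as CD34+ or as CD34neg, and 3C cultures given cyclopamine or dorsomorphin for 48 h. The cultured HFSCs are titled 3C-HFSCs. For the sorted fractions and the drugs, a 3C culture is one in which cells of the whole epidermis were kept for 10 to 14 days under conditions meant for HFSCs. CD34 and alpha-6 integrin are the surface markers by which stem cells of the hair follicle bulge are sorted, cyclopamine blocks Smoothened in the Hedgehog pathway, and dorsomorphin inhibits both AMP-activated protein kinase and the type I receptors of BMP. No untreated or vehicle culture is used here, so the drugs are compared only with each other. Strain, age, sex, drug dose and whether replicates were separate animals are not given in the sources used here.

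The table of 3 populations names its columns CD34a6, HFSC and bulk. Bulk was read as total epidermal cells. Which of the names CD34a6 and HFSC stands for freshly purified and which for cultured cells is not settled by the labels, so both are kept as names. Cd34 was at 327 FPKM in CD34a6, 8.70 in HFSC and 10.6 in bulk, and the bulge factor gene Lhx2 at 270, 2.06 and 7.91. As deposited, HFSC thus had less of both than total epidermal cells, and CD34a6 had more. Either way, 1 of the 2 columns is of fresh and 1 of cultured cells. Every difference between them is thus also one between fresh and cultured cells. In the table of culture fractions the column 3C_HFSC was read as the CD34+ fraction. Each table gives 1 FPKM value (fragments scaled by transcript length and by library size) per gene and population, as the authors estimated it over the 3 libraries, so there is no spread between replicates for any value, and the authors' p-values rest on a spread between libraries that may be technical. Read depth was unknown. Because each table was normalised on its own, levels are compared only inside one. The word called marks a difference with an adjusted p under 0.05 in the authors' deposited table. Since the members were chosen with these values known, their calls are given as a description. All 8 keratinocyte markers, among them Krt5, Krt14, Trp63 and Itga6, stood at 1 FPKM or more in all 7 populations. Their levels were not alike, however. Krt15, also on the list, was at 9923 FPKM in CD34a6, 37.9 in HFSC and 4791 in bulk, and at 62.4 in CD34+ and 10.7 in CD34neg.

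The chains of heparan sulfate or chondroitin sulfate on these cores bind growth factors, morphogens and matrix proteins, so a core protein places such ligands at a defined site. Syndecans span the membrane, and Sdc1 is the main syndecan of stratified epithelia. Glypicans are tethered to the outer membrane by a lipid anchor and modulate Wnt, Hedgehog, BMP and FGF signals. Biglycan and decorin are secreted into collagenous matrix and are typical products of dermal fibroblasts. Versican is a large hyaluronan-binding proteoglycan known in hair follicles from the dermal papilla, and Cspg4 is known from pericytes, glial progenitors and epidermal stem cells.

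The promoters of 4 members are shown because their transcripts made the main contrasts: Bgn and Cspg4, which were both high in CD34a6 and in the CD34+ fraction, and Gpc3 and Gpc4, neighbours on chromosome X whose levels parted. Each line gives the 250 bases before the annotated RefSeq start on GRCm38.p6, 5′ to 3′ on the strand of the gene. Capitals mark the GC box GGGCGG or its reverse complement CCGCCC, and the palindrome GGCGCC, a sequence bound by BMP-regulated SMAD proteins.
Bgn (chrX:73483351-73483600, plus strand): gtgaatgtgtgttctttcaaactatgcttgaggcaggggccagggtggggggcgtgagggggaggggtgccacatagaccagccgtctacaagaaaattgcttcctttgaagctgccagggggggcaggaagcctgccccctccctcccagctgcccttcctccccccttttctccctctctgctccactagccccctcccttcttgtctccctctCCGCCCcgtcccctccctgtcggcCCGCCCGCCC
Cspg4 (chr9:56864854-56865103, plus strand): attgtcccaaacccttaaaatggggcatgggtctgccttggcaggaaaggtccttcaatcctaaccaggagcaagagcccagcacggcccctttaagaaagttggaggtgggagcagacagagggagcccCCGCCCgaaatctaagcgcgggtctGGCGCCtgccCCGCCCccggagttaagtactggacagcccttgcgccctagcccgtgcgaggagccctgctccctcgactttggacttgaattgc
Gpc4 (chrX:52164924-52165173, minus strand): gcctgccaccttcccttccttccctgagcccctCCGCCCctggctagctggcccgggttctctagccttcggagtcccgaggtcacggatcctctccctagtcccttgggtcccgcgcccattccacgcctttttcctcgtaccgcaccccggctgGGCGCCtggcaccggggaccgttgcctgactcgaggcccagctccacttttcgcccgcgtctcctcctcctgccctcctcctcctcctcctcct
Gpc3 (chrX:52613975-52614224, minus strand): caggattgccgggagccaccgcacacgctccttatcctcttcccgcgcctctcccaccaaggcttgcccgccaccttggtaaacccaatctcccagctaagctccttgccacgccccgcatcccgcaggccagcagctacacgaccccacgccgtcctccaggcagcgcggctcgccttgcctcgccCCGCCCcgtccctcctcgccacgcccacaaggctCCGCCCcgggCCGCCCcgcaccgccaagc

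Promoters were listed for 7 of the 10 members, all but Dcn, Gpc1 and Gpc6. All 7 held at least 1 GC box, with 3 in Bgn (the last pair overlapping), 2 in Cspg4, 1 in Gpc4, 3 in Gpc3, 3 in Sdc1, 4 in Sdc4 and 2 in Vcan, while 32.7% of 32851 promoters of the same length held one on either strand. GGCGCC occurred once each in Cspg4 and Gpc4 and in 9.59% of all promoters. The letters TATAAA (12.4% of all promoters), TGACTCA (4.46%), the homeodomain core TAATTA (4.84%), CACGTG (6.02%) and the GLI core ACCACCC (3.92%) were searched on both strands and were absent from all 7. GC content was 64.4% in Bgn, 60.4% in Cspg4, 68.4% in Gpc4 and 71.6% in Gpc3, above the median of 52.4% over all promoters. These are letter matches only. The stretches shown for Gpc4 and Gpc3 lie inside the spans that the deposited tables list for those genes, because the listed spans reach further upstream than the RefSeq starts used.

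**Figure D1:**
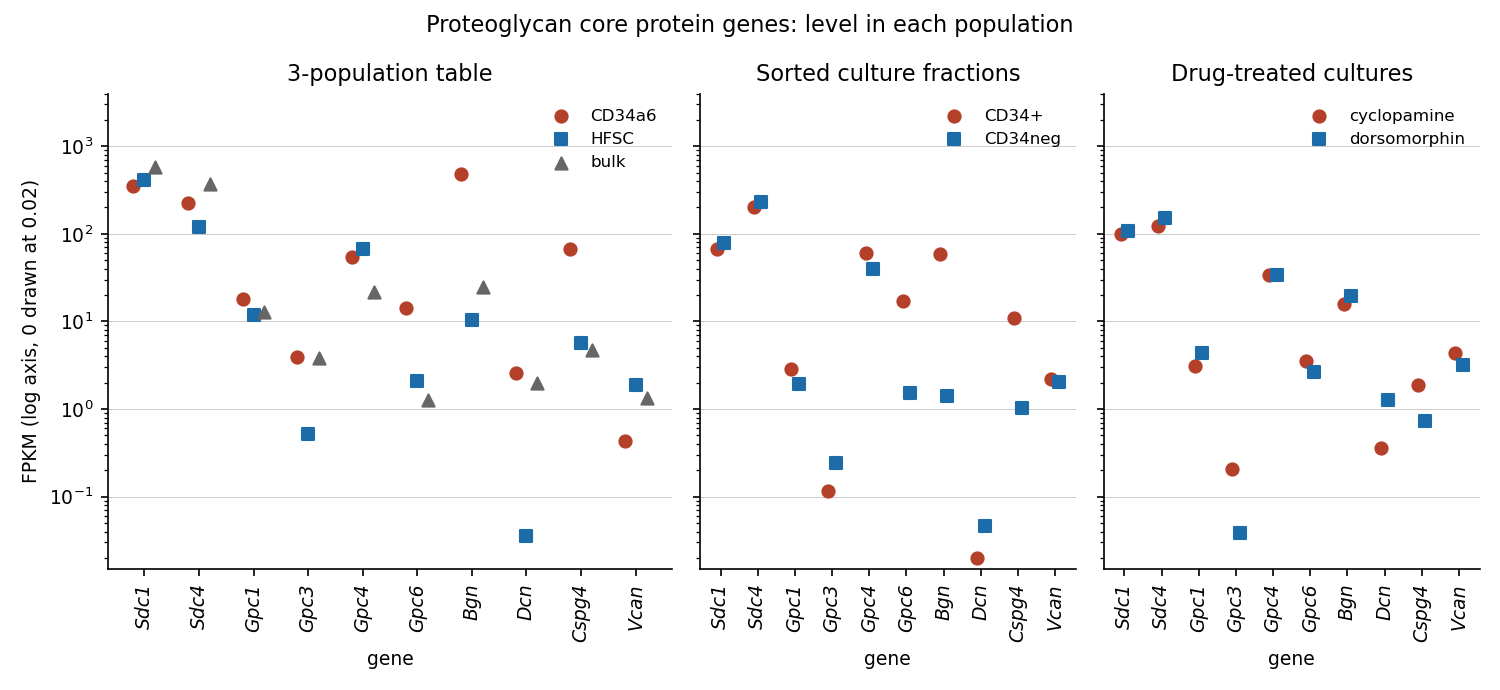
FPKM of the 10 core protein genes on a log axis, 1 point per population as the authors estimated it, with a panel for each separately normalised table. Sdc1 and Sdc4 lie near the top of every panel, whereas Bgn, Cspg4 and Gpc6 lie apart between CD34a6 and the other columns and between CD34+ and CD34neg.

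Syndecan transcripts were the most abundant of the set in 6 of the 7 populations in FPKM. Sdc1 was at 349 FPKM in CD34a6, 413 in HFSC and 576 in bulk, and no pair passed the threshold in the authors' deposited table (adjusted p = 0.0627 for CD34a6 against bulk, 0.168 for HFSC against bulk and 0.179 for HFSC against CD34a6). Sdc4, a syndecan of focal adhesions, was at 227, 120 and 367 FPKM in the same order. Bulk was thus the highest column for both genes as deposited, though not after rescaling to equal FPKM sums. The 3.05-fold lower Sdc4 value of HFSC against bulk and its 1.89-fold lower value against CD34a6 were called in the authors' deposited table (adjusted p = 0.000212 for both), and the difference between CD34a6 and bulk was not (adjusted p = 0.0567). For Sdc1 and Sdc4 in CD34a6, and for Sdc1 in HFSC, the direction against bulk turns when each population is rescaled to the same FPKM sum, bulk having the largest sum as deposited. Sdc1 lay at chr12:8771323-8793715 and Sdc4 at chr2:164424247-164443887, both at the ends of the annotated gene.

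In the culture fractions and with both drugs Sdc4 had the highest FPKM of the 10 genes. It was at 204 FPKM in the CD34+ and 229 in the CD34neg fraction, where Sdc1 was at 66.97 and 79.1. With cyclopamine and dorsomorphin Sdc4 was at 123 and 151 FPKM and Sdc1 at 101 and 107. None of these 4 differences passed the threshold, and the authors' deposited tables gave adjusted p = 0.614 and 0.448 for the fractions and 0.247 and 0.901 for the drugs. The ratio of Sdc1 to Sdc4 within a population was 1.54 in CD34a6, 3.43 in HFSC and 1.57 in bulk, 0.328 in CD34+ and 0.346 in CD34neg, and 0.818 with cyclopamine and 0.703 with dorsomorphin. Sdc1 exceeded Sdc4 in all 3 columns of the first table and Sdc4 exceeded Sdc1 in all 4 columns of the other tables. Those other columns are all of 3C cultures of whole epidermis kept for 10 to 14 days, unlike bulk. The submitters' processing notes also name different tools for those tables. The part of either in the ratio was not tested, and cells and tools cannot be told apart between tables.

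Gpc4 was the leading glypican in all 7 populations, and in the first table it was lower in bulk than in either of the other columns. It was at 54.1 FPKM in CD34a6, 67.3 in HFSC and 21.9 in bulk, which is 2.47-fold and 3.07-fold above bulk, both called in the authors' deposited table (adjusted p = 0.000212). The HFSC and CD34a6 columns did not pass against each other (adjusted p = 0.0607). Gpc4 made up 59.8% of the summed FPKM of the 4 glypicans in CD34a6, 82.3% in HFSC and 55.1% in bulk. In the culture fractions it was at 60.4 FPKM in CD34+ and 39.9 in CD34neg, which the authors' deposited table did not call (adjusted p = 0.113). It was at 34.2 FPKM with cyclopamine and 33.5 with dorsomorphin, and the adjusted p was 0.973.

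Gpc3, which restrains Hedgehog signalling and body growth in mice, is the chromosomal neighbour of Gpc4, and its values followed a different course. Gpc4 was given the locus chrX:52053021-52165252 and Gpc3 chrX:52272426-52619047, both on the minus strand and 107 kb apart with no annotated gene between them. Its level of 3.91 FPKM in CD34a6 was close to the 3.83 of bulk, and HFSC had 0.524. The HFSC column, which held the highest Gpc4 value of that table, thus held the lowest Gpc3 value. Against bulk the HFSC value was 7.30-fold lower and against CD34a6 7.46-fold lower, both called in the authors' deposited table (adjusted p = 0.000212), while CD34a6 and bulk did not differ past the threshold (adjusted p = 0.933). In the tables of culture fractions and drugs Gpc3 was not tested by the authors, and it stood at 0.115 FPKM in CD34+, 0.244 in CD34neg, 0.209 with cyclopamine and 0.0386 with dorsomorphin. The Gpc3 locus also spans Gm14582, A630012P03Rik and small RNA genes.

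Gpc6 was the glypican that marked CD34a6 and the CD34+ fraction. It was at 14.3 FPKM in CD34a6, 2.11 in HFSC and 1.27 in bulk, and at 17.2 in CD34+ and 1.52 in CD34neg. CD34a6 stood 11.2-fold above bulk and 6.77-fold above HFSC, and CD34+ 11.3-fold above CD34neg, all called in the authors' deposited tables (adjusted p = 0.000212, 0.000212 and 0.00275). HFSC against bulk was not called (adjusted p = 0.0601). Gpc6 took 15.8% of the glypican sum in CD34a6 against 2.59% in HFSC and 3.20% in bulk, and 21.3% in CD34+ against 3.49% in CD34neg. With cyclopamine it was at 3.55 FPKM and with dorsomorphin at 2.65, with an adjusted p of 0.396. Its locus, chr14:116925297-117979529 on the plus strand, spans 1054233 bp.

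Gpc1, a glypican of many epithelia, varied less. It was at 18.1 FPKM in CD34a6, 11.8 in HFSC and 12.8 in bulk. The 1.53-fold lower HFSC value against CD34a6 was called in the authors' deposited table (adjusted p = 0.00110), and neither column was called against bulk (adjusted p = 0.130 for CD34a6 and 0.643 for HFSC). It was at 2.89 and 1.95 FPKM in CD34+ and CD34neg (adjusted p = 0.390) and at 3.09 and 4.35 with cyclopamine and dorsomorphin (adjusted p = 0.376). The span listed for Gpc1, chr1:92820958-92860779, overlaps Ankmy1. So 3 of the 4 glypicans were called lower in HFSC than in CD34a6, where 29% of 13962 tested genes were, and Gpc4 was not among them.

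Bgn had the widest range of the 10 genes within the first table in FPKM, though by ratio Dcn ranged more widely. It was at 477 FPKM in CD34a6, 10.5 in HFSC and 24.4 in bulk. CD34a6 stood 19.5-fold above bulk and 45.6-fold above HFSC, and HFSC 2.33-fold below bulk, all called in the authors' deposited table (adjusted p = 0.000212, 0.000212 and 0.0128). In CD34a6 Bgn was thus the most abundant of the 10 transcripts, ahead of Sdc1. It was at 59.2 FPKM in the CD34+ and 1.403 in the CD34neg fraction, a 42.2-fold difference that was called in the authors' deposited table (adjusted p = 0.00275). With cyclopamine it was at 15.9 FPKM and with dorsomorphin at 19.5, not called (adjusted p = 0.785). The Bgn locus was chrX:73483602-73495933 on the plus strand, equal to the annotated gene and with no other gene in it.

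Dcn, the close relative of Bgn, was low throughout. It was at 2.58 FPKM in CD34a6, 1.99 in bulk and 0.0358 in HFSC, and HFSC was called lower than both in the authors' deposited table (adjusted p = 0.00249 against CD34a6 and 0.00110 against bulk). CD34a6 and bulk did not pass against each other (adjusted p = 0.368). Dcn was listed at 0 in CD34+ and at 0.0462 in CD34neg, and at 0.356 with cyclopamine and 1.26 with dorsomorphin, all untested. In CD34a6 and CD34+ a Bgn value of 477 and 59.2 FPKM stood beside a Dcn value of 2.58 and 0.

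Markers of cells other than keratinocytes were read beside these values. Of 13 fibroblast and dermal papilla markers, 4 reached 1 FPKM in CD34a6, 0 in HFSC and 3 in bulk. Their summed level was 38.9, 1.28 and 76.7 FPKM in the same order. The sum of bulk was mostly Vim and Thy1 and that of CD34a6 mostly Col1a1 and Col1a2, so the sums rest on different genes. The markers went both ways between CD34a6 and bulk: the authors' deposited table called 2 higher in CD34a6, Col1a1 (22.4 against 1.21 FPKM) and Col1a2 (8.08 against 0.825), and 2 lower, Vim (5.53 against 56.6) and Thy1 (2.24 against 17.6). Col3a1, Lum, Sox2 and Twist2 were listed at 0 in CD34a6. In the CD34+ fraction none of the 13 reached 1 FPKM, 6 were listed at 0, and the sum was 1.57 FPKM against 1.20 in CD34neg. The highest of the 13 was Vim in both fractions (0.931 and 0.927 FPKM), and Col1a1 was at 0.390 in CD34+ and listed at 0 in CD34neg. The part of fibroblast RNA in the differences of Bgn and Dcn was not tested. In libraries of many cells, fewer cells of a type and less RNA per cell cannot be told apart.

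**Figure D2:**
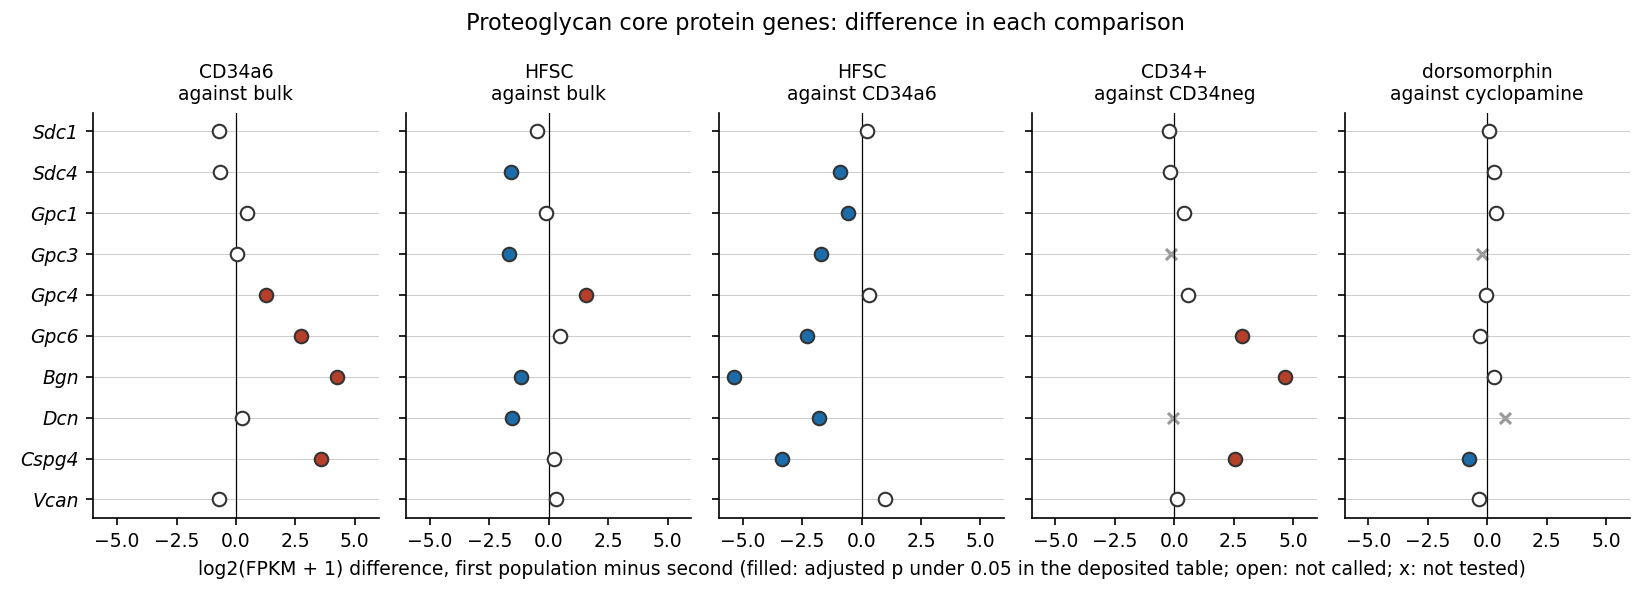
Difference of log2(FPKM + 1) between the populations of each comparison for the 10 genes, positive where the first population was higher. Filled points were called in the authors' deposited tables, open points were not and crosses were not tested; Bgn, Cspg4 and Gpc6 are filled on the right for CD34a6 against bulk and for CD34+ against CD34neg.

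Cspg4 followed the same course as Bgn and Gpc6 over CD34a6 and the culture fractions, and was the 1 member called between the drugs. It was at 67.6 FPKM in CD34a6, 5.72 in HFSC and 4.73 in bulk. CD34a6 stood 14.3-fold above bulk and 11.8-fold above HFSC, both called in the authors' deposited table (adjusted p = 0.000212), and HFSC against bulk was not called (adjusted p = 0.305). It was at 10.9 FPKM in CD34+ and 1.02 in CD34neg, a 10.7-fold difference with an adjusted p of 0.00275. Cspg4 was at 1.90 FPKM with cyclopamine and 0.723 with dorsomorphin, which is 2.63-fold lower with dorsomorphin (adjusted p = 0.00479 in the authors' deposited table). Bgn, by contrast, was not called between the drugs and had its higher value with dorsomorphin. The Cspg4 locus was chr9:56865104-56899870 on the plus strand, with no other gene in it.

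Cspg4 is also made by pericytes, pigment cells and glial cells. Of 10 endothelial and mural markers 1 reached 1 FPKM in each population. That was Tek (1.17 FPKM) in CD34a6, where the mural genes Pdgfrb and Des were listed at 0, and Acta2 in the others, at 62.1 FPKM in HFSC, 31.8 in CD34+ and 12.9 in CD34neg. Acta2 was higher with dorsomorphin (6.95 against 3.14 FPKM), where Cspg4 was lower. The 8 melanocyte markers summed to 22.7 FPKM in CD34a6, 3.11 in HFSC and 8.01 in bulk, and they too went both ways between CD34a6 and bulk. Mitf (13.9 against 0.981 FPKM) and Dct (7.29 against 2.63) were called higher in CD34a6 and Tyrp1 (0.348 against 1.18) lower, while Pmel (0.643 against 2.57) was not called. In CD34+ they summed to 2.91 FPKM, of which Mitf made 2.26, and 6 of the 8 were listed at 0. The 6 Schwann and glial markers summed to 5.79 FPKM in CD34a6, 14.6 in HFSC and 13.4 in bulk, and to 8.43 in CD34+ and 6.06 in CD34neg. Mbp was the highest of them in each of these columns. The 10 immune markers summed to 344 FPKM in bulk and 6.01 or less elsewhere. The part of these cells in the Cspg4 differences was not tested.

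Vcan was low and not called in any comparison. It was at 0.431 FPKM in CD34a6, 1.87 in HFSC and 1.32 in bulk, at 2.23 and 2.03 in CD34+ and CD34neg, and at 4.37 and 3.21 with cyclopamine and dorsomorphin. The authors' deposited tables gave adjusted p = 0.247 for CD34a6 against bulk, 0.691 for HFSC against bulk, 0.0754 for HFSC against CD34a6, 0.923 for the fractions and 0.878 for the drugs. CD34a6, where Bgn and Cspg4 were highest, held the lowest Vcan value of its table. The span listed for Vcan, chr13:89655312-90143907, also covers Xrcc4 and Tmem167, which have values of their own in the tables.

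Set together, 4 of the 10 members were called higher in CD34a6 than in bulk (Bgn, Cspg4, Gpc4 and Gpc6) and 0 lower, where 46.3% of 14441 tested genes were called. In HFSC 1 was higher (Gpc4) and 4 were lower (Sdc4, Gpc3, Bgn and Dcn) than in bulk, where 43.7% of 14035 were called. In HFSC against CD34a6 0 were higher and 7 lower, all but Sdc1, Gpc4 and Vcan, where 54.2% of 13962 were called. Between the culture fractions 3 of 8 tested members were higher in CD34+ (Bgn, Cspg4 and Gpc6) and 0 lower, with 6.79% of 11370 genes called. Between the drugs 1 of 8 was lower with dorsomorphin and 0 higher, with 2.57% of 11505 called. In these rules a call in 1 direction was made for 22% and 24.3% (higher and lower), 19% and 24.7%, 25.2% and 29%, 2.08% and 4.71%, and 1.26% and 1.31% of genes in the same order. The first 3 comparisons share libraries. Bulk had the largest FPKM sum, and rescaling the populations to equal sums multiplies every ratio of CD34a6 to bulk by 2.25 and of HFSC to bulk by 1.90. After it CD34a6 stood above bulk 44.0-fold for Bgn, 32.2-fold for Cspg4, 25.4-fold for Gpc6 and 5.57-fold for Gpc4. HFSC stood 5.84-fold above bulk for Gpc4, and below it 1.60-fold for Sdc4, 3.84-fold for Gpc3, 29.3-fold for Dcn and 1.23-fold for Bgn. These rescaled ratios have no test. The median of the members' log2(FPKM + 1) differences was 0.36, -0.29, -1.30, 0.49 and 0.02, beside 0.0029, -0.11, -0.07, -0.07 and -0.02 for all tested genes.

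CD34a6 against bulk and CD34+ against CD34neg have no library in common. In both, though, the first column held more Cd34 than the second (327 against 10.6 FPKM and 38.7 against 2.26). The members were also chosen with these calls known, so their place among shared genes is a description only. Of the 3173 genes higher in CD34a6 and the 236 higher in CD34+, 161 were shared, which is 5.07% of the first list and 68.2% of the second, and Bgn, Cspg4 and Gpc6 were among them. Of the 236 genes higher in CD34+ and the 151 lower with dorsomorphin, 11 were shared, or 4.66% and 7.28%, with Cspg4 as the 1 member.

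**Figure D3:**
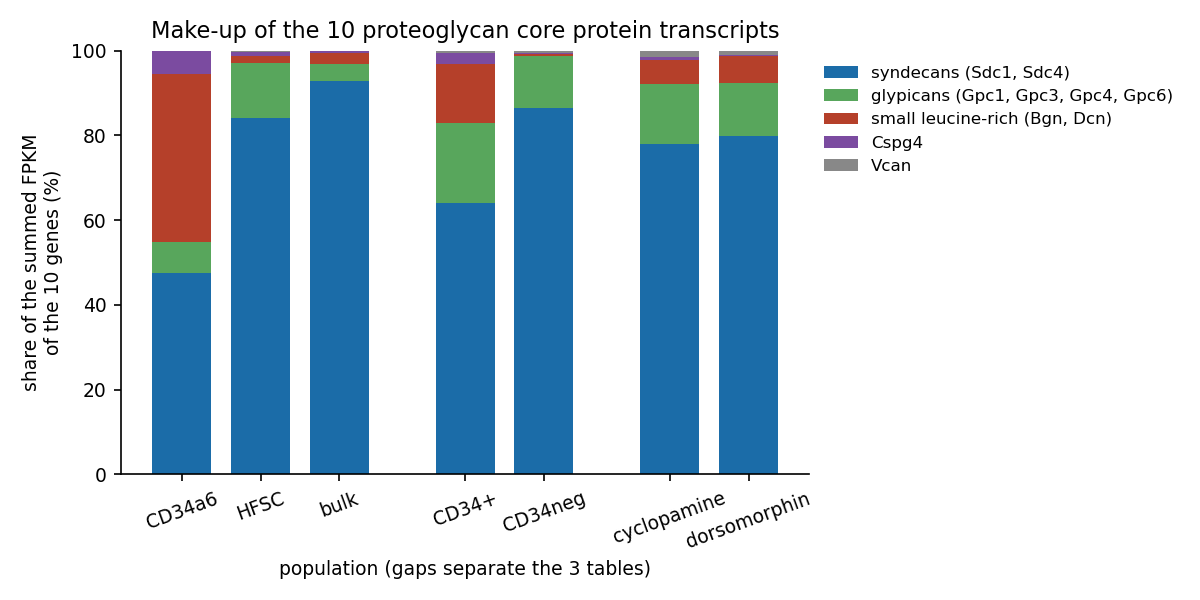
Share of the summed FPKM of the 10 genes taken by each class in each population, as stacked bars that start at 0, with gaps between the 3 tables. Syndecans take 47.5% in CD34a6 and 64.0% in CD34+, and between 77.9% and 92.9% in the other columns.

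The make-up of the core protein transcripts was read from the share of each class in their summed FPKM, which rescaling a population does not change. FPKM is scaled by transcript length, so levels of different genes can be added. The 10 genes summed to 1215 FPKM in CD34a6, 633 in HFSC and 1015 in bulk, to 424 in CD34+ and 356 in CD34neg, and to 288 with cyclopamine and 323 with dorsomorphin. Syndecans made 47.5% of the sum in CD34a6, against 84.2% in HFSC and 92.9% in bulk. Bgn and Dcn together made 39.5% in CD34a6, 1.66% in HFSC and 2.60% in bulk, nearly all of it Bgn. Among these 10 genes, CD34a6 was thus the 1 column of its table with a large share of a secreted, matrix-type core. Matrix cores outside the 10 were high in HFSC as well. Col18a1 was at 224 FPKM in CD34a6, 206 in HFSC and 23.4 in bulk, and Agrn at 339, 87.6 and 47.5. In CD34+ syndecans made 64.0% and the small leucine-rich pair 13.9%, against 86.5% and 0.407% in CD34neg. Glypicans made 7.45% in CD34a6, 12.9% in HFSC, 3.92% in bulk, 19.0% in CD34+ and 12.3% in CD34neg. With the drugs the shares lay close together, at 77.9% and 79.8% for syndecans and 5.65% and 6.41% for Bgn and Dcn with cyclopamine and dorsomorphin.

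**Figure D4:**
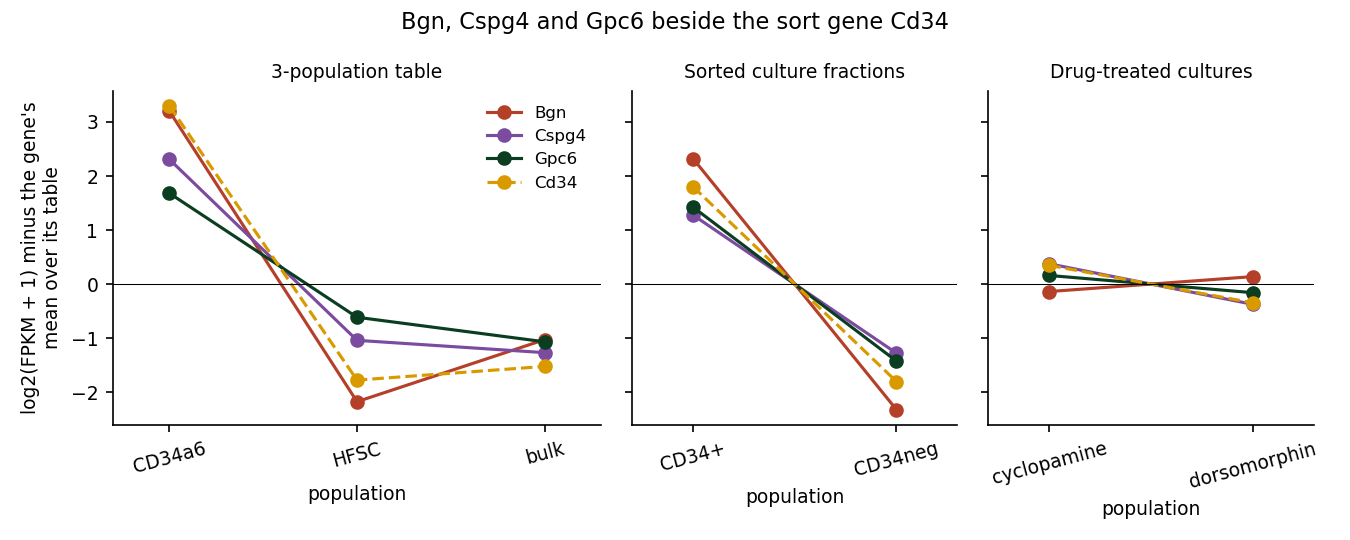
log2(FPKM + 1) of Bgn, Cspg4, Gpc6 and the sort gene Cd34, each less its own mean over the populations of a table. The 4 lines peak at CD34a6 and at CD34+, and with the drugs only Bgn has its higher value with dorsomorphin.

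Other genes with the most similar course were sought by distance between log2(FPKM + 1) values, each less the gene's own mean in its table, over the 7 populations and 11266 other genes that reached 5 FPKM in a population. The gene nearest to Bgn was Cd34, the gene of the sort marker (distance 1.19), and next was Lhx2 (1.98), which encodes a LIM homeodomain factor of the bulge. Cd34 was at 327, 8.70 and 10.6 FPKM in CD34a6, HFSC and bulk, 38.7 and 2.26 in CD34+ and CD34neg, and 11.7 and 6.87 with cyclopamine and dorsomorphin. Nearest to Cspg4 were Tns1 (0.517), a focal adhesion protein, and Pdzrn3 (0.805), and nearest to Gpc6 were Scrg1 (0.528) and Enpp1 (0.581). Plxna1 (0.134) and Pdzd8 (0.154) were nearest to Gpc4, Abi2 and Rell1 (both 0.161) to Gpc1, Exosc3 (0.0621) and Wrap73 (0.0763) to Sdc1, and Phactr2 (0.156) and the dermatan and chondroitin sulfotransferase gene Ust (0.176) to Sdc4. A distance is small wherever a gene varies little, so values are not comparable between members. Among the 10 themselves, Cspg4 and Gpc6 were each other's nearest (0.868), and Cspg4 was the nearest to Bgn (2.204). The members under 5 FPKM in every column had as nearest genes H2afv and Lmo4 for Dcn, Dlg3 and Rasgef1b for Gpc3, and Sqstm1 and Pwp2 for Vcan.

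**Figure D5:**
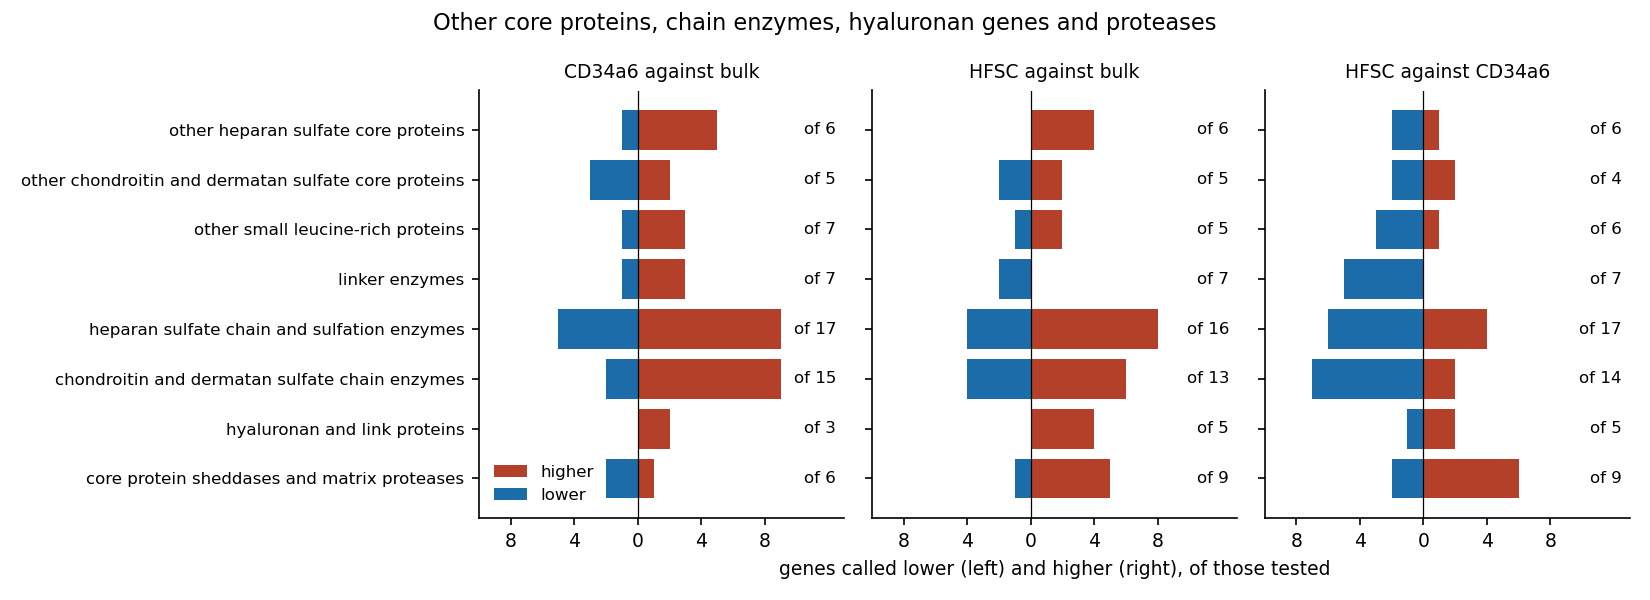
Number of tested genes called lower (left) and higher (right) in the authors' deposited table for 8 lists of related genes, in the 3 comparisons of the first table. Heparan sulfate and chondroitin sulfate chain enzymes have 9 genes each on the higher side for CD34a6 against bulk.

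Most of the other heparan sulfate core proteins were higher in CD34a6. Of 6 tested, 5 were higher than in bulk and 1 lower in the authors' deposited table, with the basement membrane cores agrin (Agrn, 339 against 47.5 FPKM), perlecan (Hspg2, 71.0 against 6.90) and collagen XVIII (Col18a1, 224 against 23.4) as the largest differences in log2(FPKM + 1). Their median log2 difference was 2.196. In HFSC 4 of 6 were higher than in bulk and 0 lower, with Col18a1 at 206 FPKM, Sdc3 at 3.23 against 0.389 and Sdc2 at 16.2 against 5.30. HFSC had 1 higher and 2 lower than CD34a6. The lower ones were Agrn (87.6 FPKM) and Hspg2 (14.2), and the higher one was Tgfbr3, a TGF-beta co-receptor (4.65 against 1.39). Of the 5 tested between the fractions and the 6 tested between the drugs, 0 were called, where 6.79% and 2.57% of all tested genes were.

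Among other small leucine-rich proteins, CD34a6 had 3 of 7 higher than bulk and 1 lower. The higher ones were Prelp (7.58 against 0.443 FPKM), Fmod, which encodes fibromodulin (2.90 against 0.187), and Tsku, which encodes tsukushi (9.01 against 0.851). In HFSC 2 of 5 were higher and 1 lower than in bulk, with Tsku at 13.6 FPKM, and against CD34a6 1 of 6 was higher and 3 lower, with Fmod at 0.0512 and Prelp at 0.954. Tsku thus stood high in both columns, and Fmod and Prelp in CD34a6. Between the fractions 0 of 2 were called, and between the drugs 0 of 1.

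Other chondroitin and dermatan sulfate cores were split. CD34a6 had 2 of 5 above bulk and 3 below, with Cd44, a hyaluronan receptor that can carry chains, at 131 against 52.0 FPKM, and with Srgn, the core of immune cell granules, at 0.144 against 5.39 and Cd74 at 3.87 against 159. In HFSC 2 of 5 were higher and 2 lower than in bulk, with Cd44 at 190 FPKM and Srgn listed at 0. Against CD34a6 2 of 4 were higher in HFSC and 2 lower, with Ptprz1, a receptor phosphatase, at 2.25 against 0.149 FPKM and Spock2 at 0.433 against 2.37. Of 3 tested between the fractions and 2 between the drugs, 0 were called. Of the 10 immune markers, among which Cd74 is itself counted, 9 were lower in CD34a6 and 0 higher, and the part of immune cells in the Cd74 and Srgn differences was not tested.

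The enzymes that start, extend and sulfate the chains were called in both directions. Linker enzymes, which attach the first sugars to the core, were higher in CD34a6 than in bulk for 3 of 7 and lower for 1, with the xylosyltransferase gene Xylt1 at 4.35 against 0.567 FPKM and the xylose kinase gene Fam20b at 26.5 against 57.6. HFSC had 0 higher and 2 lower than bulk and 0 higher and 5 lower than CD34a6, with Xylt1 at 0.292 FPKM. Heparan sulfate chain and sulfation enzymes were higher in CD34a6 for 9 of 17 and lower for 5. The largest differences in log2(FPKM + 1) were on the lower side, in Extl1 (3.80 against 27.8 FPKM), the 3-O-sulfotransferase gene Hs3st6 (7.28 against 58.8) and the heparanase gene Hpse (0.478 against 8.16). By ratio the largest was on the higher side, in the sulfatase gene Sulf1 (2.77 against 0.133 FPKM, 20.8-fold), which was named after its values were seen. HFSC had 8 of 16 higher and 4 lower than bulk, with Extl1 at 0.389 FPKM, Hs3st6 at 4.06 and the 6-O-sulfotransferase gene Hs6st1 at 34.3 against 7.72, and 4 of 17 higher and 6 lower than CD34a6. Bulk was thus the column with most Extl1, Hs3st6 and Hpse.

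Chondroitin and dermatan sulfate chain enzymes were higher in CD34a6 than in bulk for 9 of 15 and lower for 2. The 4-O-sulfotransferase gene Chst11 was at 12.3 against 0.534 FPKM, Chst13 at 3.46 against 0.223 and the chondroitin synthase gene Chsy1 at 7.40 against 1.33. In HFSC 6 of 13 were higher and 4 lower than in bulk, with Dse, the dermatan sulfate epimerase gene, at 16.2 against 0.994 FPKM, and 2 of 14 were higher and 7 lower than in CD34a6, with Chst11 at 0.149. So the highest Chst11 value lay in the column with the highest Bgn value, and the highest Dse value in HFSC. Between the fractions 0 of 5 linker, 0 of 12 heparan sulfate and 0 of 9 chondroitin sulfate enzymes were called, and between the drugs 0 of 6, 0 of 13 and 0 of 7. The median log2 differences of the linker, heparan sulfate and chondroitin sulfate enzymes were 0.15, 0.76 and 0.90 for CD34a6 against bulk, -0.28, 0.46 and -0.08 for HFSC against bulk, and -0.48, -0.17 and -0.61 for HFSC against CD34a6. Rescaling to equal FPKM sums would add 1.17, 0.93 and -0.25 to the log2 FPKM ratios of these 3 comparisons, a shift larger in size than 7 of the 9 medians. The calls of these lists, of the other core protein lists and of the marker lists are read beside the shares of all genes called in the same comparisons. These were 46.3%, 43.7% and 54.2% in the first table, 6.79% between the fractions and 2.57% between the drugs. By direction, higher and lower, the first 3 comparisons had 22% and 24.3%, 19% and 24.7%, and 25.2% and 29%. At the shares of the fractions and drugs, lists of this size can hold 0 called genes.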

How the data were processed

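RNA was sequenced from 21 mouse libraries. The authors deposited 3 tables whose columns are those of Cuffdiff output, per the file headers. FPKM values were estimated by the authors over the 3 libraries of a population, the log2 fold changes were deposited as the log2 ratio of those values, and the p-values and q-values are the authors' own. Per the submitters' processing notes, the 3-population table's libraries went through Cuffdiff and Cufflinks 2.2.1, StringTie 1.1.0, HISAT 0.1.6 and FastQC 0.11.3, and the other libraries through DESeq2 1.8.1, Subread 1.4.2 (featureCounts), TopHat2 2.0.13, cutadapt 1.5 and FastQC 0.11.2, listed in no order. The labels' descriptions name TopHat2 alignment for all. The build was GRCm38 for both. Which tool made the p-values of the other tables is not settled.

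Here, lines repeating a symbol, locus and values were counted once, values were assigned by the population named on each line, and signs were turned so that the first population named is positive. Adjusting the deposited p-values by Benjamini-Hochberg over a table's tested lines gave back its q-values to within 5.29e-07. No test was made here, and no value per replicate was analysed. Summaries used log2(FPKM + 1), which understates changes of low genes. Loci were compared with GENCODE vM21, and starts are printed counting from 1. Work was done in Python 3.11.15 with pandas 2.3.3 and numpy 2.4.6, and the scripts were tested on simulated data.

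The members, the 8 lists of related genes (105 genes) and the 6 marker lists (55 genes) were chosen with earlier results of these data known. Cd74, Lum and Sox10 stand in 2 lists each. Gpc2 and Hyal1 were not listed under their own symbols. By rule, the text names all members, up to 3 called genes of each list by size of difference in log2(FPKM + 1), and the 2 genes nearest to each member. Markers named beside a result were chosen after their values were seen.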

Additional observations from a re-analysis of the deposited data

How the results depend on the processing

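Counts of members called did not change with an adjusted p under 0.01, with the adjustment made within a pair alone, or with a minimum of 1 FPKM in the higher population, by more than 1.5 times. Rescaling each population to the same FPKM sum moved the median log2 difference of all tested genes to 1.00, 0.66, -0.31, 0.31 and 0.09 in the order CD34a6 against bulk, HFSC against bulk, HFSC against CD34a6, CD34+ against CD34neg and dorsomorphin against cyclopamine. Under it the members' median for HFSC against bulk turned from -0.29 to 0.61, which is under the 0.66 of all genes. The differences that turned were Sdc4 (0.48) and Sdc1 (0.45) for CD34a6 against bulk, Sdc1 (0.45) and Gpc1 (0.77) for HFSC against bulk, Sdc1 (-0.0051) for HFSC against CD34a6, Sdc1 (0.17) and Sdc4 (0.25) for CD34+ against CD34neg, and Gpc4 (0.083) between the drugs. None of these 8 was called. Called ratios against bulk moved by more than 1.5 times, with values beside the counts of members called. Centring on the median of all tested genes turned Gpc1 for HFSC against bulk (0.0063). Pseudocounts of 0.1 and 0.01 turned no median and, at 0.1, no member. No paired analysis was possible because the tables hold 1 value per population, and for the same reason no replicate could be left out. Depth is unknown, so values under 1 FPKM carry no limit of detection.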

Other observations

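Genes of hyaluronan, the sugar chain that versican and Cd44 bind, and of proteases that cut core proteins were measured beside the members. Calls of both lists are to be read beside the shares of all tested genes called. These were 46.3% for CD34a6 against bulk, 43.7% for HFSC against bulk and 54.2% for HFSC against CD34a6. Between the fractions 6.79% were called and between the drugs 2.57%. Among hyaluronan and link protein genes CD34a6 had 2 of 3 higher than bulk and 0 lower, the synthase gene Has2 (2.92 against 0.125 FPKM) and the hyaluronidase gene Tmem2 (11.6 against 3.09). In HFSC 4 of 5 were higher than in bulk and 0 lower, with Has2 at 5.15 FPKM, Has3 at 6.66 against 0.208 and Cemip at 2.36 against 0.0382. HFSC had 2 of 5 higher and 1 lower than CD34a6, where Has3 was at 0.0957 FPKM. HFSC was thus the column with the most Has2 and Has3 of the first table. It also held the most Vcan, but no Vcan difference was called. Tmem2 was the 1 of 4 tested that was higher in CD34+ than in CD34neg (5.82 against 3.15 FPKM, adjusted p = 0.0407 in the authors' deposited table), and 0 of 5 were called between the drugs.

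Core protein sheddases and matrix proteases were higher in HFSC than in bulk for 5 of 9 and lower for 1, and higher than in CD34a6 for 6 of 9 and lower for 2. Adamts15, a protease that cuts versican and aggrecan, was at 12.6 FPKM in HFSC, 0.0827 in bulk and 0.137 in CD34a6, and Adamts9 at 2.49, 0.270 and 0.149. In CD34a6 1 of 6 was higher than in bulk and 2 were lower, with Mmp14, a membrane protease that sheds syndecan, at 106 against 37.7 FPKM and Mmp9 at 0.141 against 4.63. Adamts1, another versicanase, was lower with dorsomorphin (18.8 against 41.3 FPKM, adjusted p = 0.00479 in the authors' deposited table), the 1 of 7 tested protease genes called between the drugs. Between the fractions 0 of 8 were called.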
